A study of Mus musculus with 8 samples.

Results

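The genes described are 37 mouse genes of the endoplasmic reticulum (ER) stress response, taken from a written list and matched by symbol to the Ensembl identifiers of the deposited count table. All 37 were found among its 55401 identifiers. They form a UPR group of 16 genes, which holds the folding machinery of the unfolded protein response and its sensors, and an ATF4 group of 21 genes, which holds the transcription factor ATF4, its partners and its targets in amino acid metabolism. The study read polyA RNA of 3 mouse lines grown from epithelioid hemangioendothelioma, a tumour of vascular endothelium, with EHE6 and EHE17 at 3 libraries each and EHE26 at 2. The labels name the lines and number the replicates; genotype, strain, treatment, age of the animals and whether a line is 1 clone are not given in the sources used here. Nothing says that replicates came from separate cultures, so a p-value measures the spread between these libraries, which may be technical. Of 10 endothelial markers, Pecam1 (1178.8 to 1675 CPM) and Cdh5 (1056 to 4890.3 CPM) kept a high level in all 8 libraries, where CPM are read counts scaled to the size of the library. Others were not kept in every library: Cldn5 stood at 1.05 CPM in EHE6 replicate 3 and at 7.95 and 0.526 CPM in EHE26, against 279 to 769.7 CPM in the other 5 libraries. Kdr (22.1 to 1042 CPM) and Tie1 (37.3 to 1258 CPM) were lowest in the same 3 libraries.

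The unfolded protein response is read by the ER membrane proteins IRE1 (encoded by Ern1), PERK (Eif2ak3) and ATF6 (Atf6). IRE1 splices the mRNA of Xbp1, and the spliced XBP1 protein and cleaved ATF6 switch on ER chaperones and degradation factors. PERK phosphorylates the translation factor eIF2alpha, as do kinases that sense amino acid shortage, viral RNA or haem shortage, and ATF4 is then translated and switches on amino acid synthesis, transport and stress genes. Counts per gene show neither Xbp1 splicing, ATF6 cleavage nor ATF4 translation.

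The DNA letters through which these factors are known to act were looked for around the RefSeq start sites, because they depend on no measured level. Windows of 250 bases before to 50 bases after each start (RefSeq, GRCm38.p6) were at hand for 33 of the 37 genes, 13 of the UPR group and 20 of the ATF4 group. The motifs searched, on both strands, were the ER stress response element ERSE (CCAAT and CCACG with 9 bases between), its variant ERSE-II (ATTGG and CCACG with 1 base between), the C/EBP-ATF response element CARE (TGATGNAA), the XBP1 element UPRE (TGACGTGG) and the cyclic AMP element CRE (TGACGTCA). Members are counted as genes with the letters in any of their windows, and 3 members had more than 1 start. The share over all windows is counted per window. ERSE letters were found for 5 of the 13 UPR genes and in 0.119% of all 32851 windows. The lines below run 5′ to 3′ on the gene's strand, and capitals mark the fixed letters of the motif.
Hspa5, chr2:34772020-34772048 (+): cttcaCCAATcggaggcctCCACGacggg
Hsp90b1, chr10:86705633-86705661 (-): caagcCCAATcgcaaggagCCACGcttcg
Hsp90b1, chr10:86705528-86705556 (-): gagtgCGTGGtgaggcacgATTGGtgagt
Pdia6, chr12:17266486-17266514 (+): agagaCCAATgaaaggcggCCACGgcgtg
Dnajc3, chr14:118937822-118937850 (+): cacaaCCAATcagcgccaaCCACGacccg
Creld2, chr15:88819515-88819543 (+): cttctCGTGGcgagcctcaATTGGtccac
ERSE-II letters were found for 2 more UPR genes and in 0.0365% of all windows.
Dnajb11, chr16:22857843-22857871 (+): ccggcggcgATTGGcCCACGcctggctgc
Herpud1, chr8:94386368-94386396 (+): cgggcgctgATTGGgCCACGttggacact
Neither form was found for the 20 ATF4 genes. CARE letters were found for 7 of these 20 genes and in 3.97% of all windows, and Herpud1 was the 1 UPR gene with them.
Trib3, chr2:152344030-152344055 (-): agctcaggtTTaCATCAgccgggcgg
Chac1, chr2:119351040-119351065 (+): tccctgccgTTgCATCActcctgcca
Vldlr, chr19:27216811-27216836 (+): cagcaatagTTgCATCAgcgctccta
Nupr1, chr7:126625564-126625589 (-): agggccagaTTgCATCAgacagggct
Asns, chr6:7693216-7693241 (-): ccagccacaTGATGaAActtcccgca
Pycr1, chr11:120643835-120643860 (-): ccctgtgtaTGATGcAAtgcacaagg
Herpud1, chr8:94386308-94386333 (+): cacggcgggTTgCATCAgcccgcacc
The CRE was in the window of Ppp1r15a alone among the members and in 1.79% of all windows; the UPRE was in none of the members and in 0.676% of all windows.

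Of the 18 matches, taken with their flanking bases, 7 touched an exon of the same gene in GENCODE M21, and the other 11 touched none of its exons. Starts in GENCODE M21 can differ from those of RefSeq. The matches of Trib3 and Dnajb11 began 15 and 8 bases after the RefSeq start. Hsp90b1 and Slc7a11 each held their motif on both strands, and a longer stretch of each is shown for that reason. The stretch before Hsp90b1 runs from 227 to 74 bases before the start, and the stretch before Slc7a11 from 81 to 25 bases before it.
Hsp90b1, chr10:86705518-86705671 (-): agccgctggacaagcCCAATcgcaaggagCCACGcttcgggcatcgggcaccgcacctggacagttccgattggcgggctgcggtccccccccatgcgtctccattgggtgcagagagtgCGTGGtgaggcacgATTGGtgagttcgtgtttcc
Slc7a11, chr3:50443638-50443694 (-): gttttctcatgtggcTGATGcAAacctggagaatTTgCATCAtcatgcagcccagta
A match is a run of letters and not a shown binding site.

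Library totals ran from 44620965 to 96237665 counts, and the fewest counts behind a member in any library were 190 (Ddit3 in EHE6 replicate 1). The libraries fell into 2 sets that cross the lines. Over all 18882 tested genes, principal component 1 held 56.2% of the variance and put EHE6 replicates 1 and 2 with EHE17 replicates 1 and 2, the first set, and put the EHE26 libraries with replicate 3 of EHE6 and of EHE17, the second set. The first set lay at -122 to -103 on this component and the second at 126 to 148, apart from EHE17 replicate 3, which lay between at 41.7. Totals were 69366708 to 96237665 counts in the first set and 44620965 to 55802651 in the second, and the part of depth in the results was not tested. EHE26 has no library in the first set, so a comparison of EHE26 with all libraries of another line also compares the sets. In replicate 3 against the mean of replicates 1 and 2, the 12 proliferation genes were higher by a median of 1.94 (log2) in EHE6 and 2.0 in EHE17, and the 10 endothelial markers had medians of -3.12 and -0.52. Summed over the endothelial list, levels were 2665 to 12076 CPM in EHE6, 6159 to 10035 CPM in EHE17 and 3891 to 4961 CPM in EHE26. In bulk RNA, fewer cells of a type and less RNA per cell cannot be told apart.

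All 37 genes passed the filter on low counts. Levels are given in CPM scaled by TMM factors, which allow for differences in library composition, and a log2 fold change is given with its standard error (SE). To be called, a gene needed at least a doubling or halving (1 on the log2 scale) and a Benjamini-Hochberg adjusted p under 0.05 in edgeR's quasi-likelihood test over all 18882 genes. No member was called in any of the 3 comparisons. EHE17 against EHE6 called 0 of 37 members where 0.143% of all tested genes were called, with 4 members higher and 1 lower at an unadjusted p under 0.05 (3.79% and 3.10% of all genes). EHE26 against EHE6 called 0 members against 1.26% of all genes, with 6 higher and 0 lower at an unadjusted p under 0.05 (6.85% and 9.04%). EHE26 against EHE17 called 0 members against 1.08%, with 5 higher and 4 lower at an unadjusted p under 0.05 (7.56% and 9.03%). DESeq2 called 0, 1 and 2 members in these comparisons, where it called 2.07%, 8.27% and 8.92% of all genes. With the replicate number as a block in the fit, 3 members were called in EHE26 against EHE6 and 4 in EHE26 against EHE17 (7.73% and 9.85% of all genes). Without replicate 3 of EHE6 and EHE17 together these counts were 7 and 8 (22.7% and 21.9% of all genes), and without EHE6 replicate 3 alone they were 2 and 1 (8.58% and 7.44%). The 7 were Pdia4, Ern1, Herpud1, Nupr1, Ddit3, Pycr1 and Slc7a5, all higher in EHE26. The 8 were Pdia4, Hsp90b1, Herpud1, Ddit3, Pycr1 and Slc7a5, higher, and Cebpb and Trib3, lower. EHE26 has no replicate 3. The block and the fit without replicate 3 therefore set EHE26 mainly or only against the first set, and neither separates line from set.

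**Figure D1:**
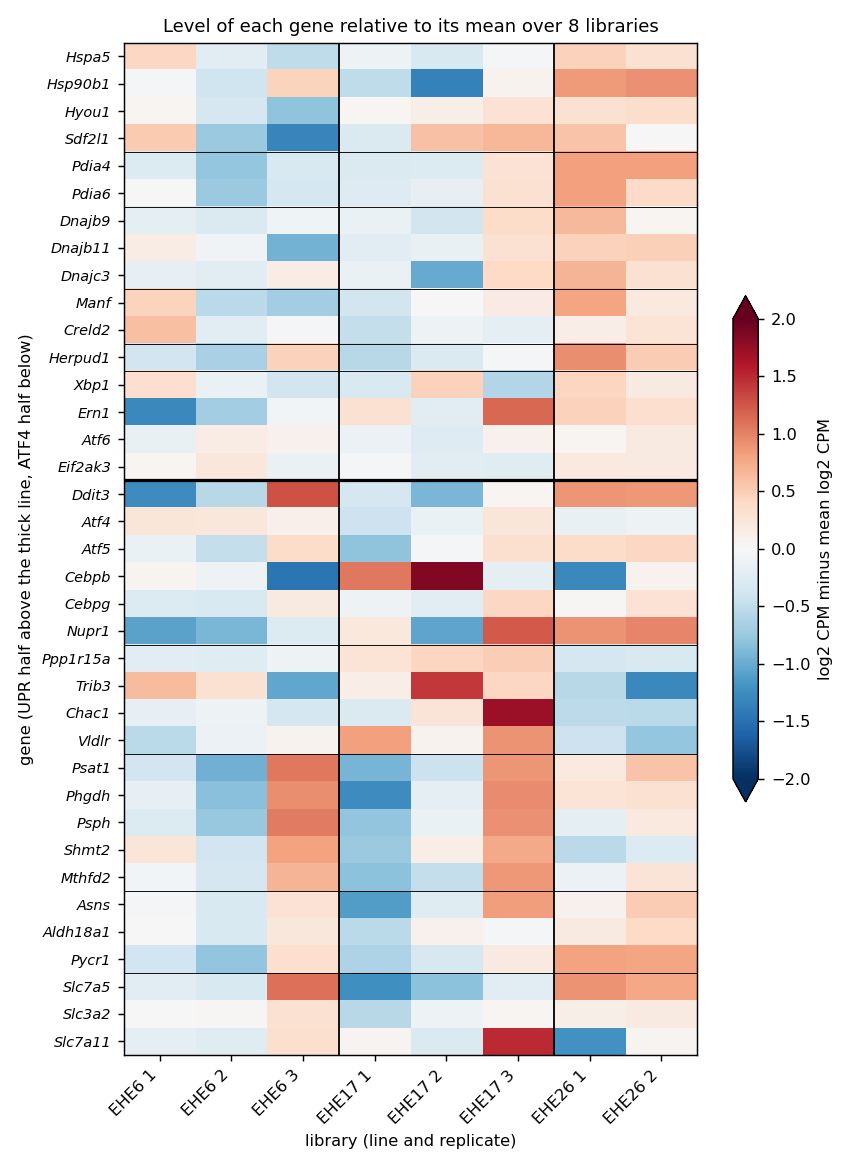
Each row is a gene, each column a library, and colour gives log2 CPM minus the gene's mean over the 8 libraries (red higher, blue lower, from -2 to 2). The UPR rows above the thick line are mostly red in the EHE26 columns, and the serine enzyme rows Psat1 to Mthfd2 are red in replicate 3 of both EHE6 and EHE17.

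The UPR genes stood mostly highest in EHE26. Their mean CPM was highest in EHE26 for 14 of 16 genes, in EHE17 for 2 and in EHE6 for 0. Against EHE6 all 16 log2 fold changes were above 0, where 43.4% of all tested genes were, and 51.1% of the 9565 genes with a mean of at least 10 CPM. The median over the 16 was 0.64 (all tested genes -0.11). In 9 of the 16 both EHE26 libraries lay above all 3 EHE6 libraries, and in 0 of the 16 did they lie below. The pattern of lying above was shown by 16.0% of all tested genes and 19.1% of those with a mean of at least 10 CPM. Against EHE17, 14 of 16 were above 0 (44.2% of all genes and 52.8% of those with a mean of at least 10 CPM). The median was 0.46 (all genes -0.11), and 10 of 16 did not overlap and were higher. Of all genes 18.7% did so, and of those with a mean of at least 10 CPM 22.2%. The 2 comparisons share the EHE26 libraries. None of the 16 passed the threshold for a call.

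Within the second set, EHE26 (2 libraries) could be set beside 1 library of each other line, of which EHE17 replicate 3 stands partly between the sets. Both EHE26 libraries lay above EHE6 replicate 3 for 15 of 16 UPR genes (37.1% of all tested genes) and above EHE17 replicate 3 for 11 of 16 (36.8%). With the set as a term in the fit the median over the 16 was 0.52 against EHE6 and 0.50 against EHE17, with 15 of 16 above 0 in each. Against EHE6 the exception was Atf6. The set was read from principal component 1 of these same data. EHE26 has no library in the first set, so the size of the set term rests on EHE6 and EHE17 alone. Each of these has 1 library, replicate 3, in the second set. Without replicate 3 of EHE6 and EHE17 the median was 0.48 and 0.60, and 15 and 16 of 16 were above 0, the exception being Creld2 at -0.04 against EHE6. Libraries then did not overlap and were higher for 9 and 14 genes, where 30.1% and 27.1% of all genes did so. Between EHE17 and EHE6 this group showed no common direction: 8 of 16 genes were above 0 (47.1% of all genes) and 8 below, with a median of 0.03 (all genes -0.03), and for 0 of the 16 did the libraries of EHE17 and EHE6 not overlap.

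Hspa5 and Hsp90b1 encode the main ER forms of the HSP70 and HSP90 chaperones, BiP and GRP94. Per kilobase of exon, Hspa5 was the most abundant member over all libraries (210.1 CPM per kb), followed by Atf4 (172 CPM per kb) and Hsp90b1 (154 CPM per kb). Hspa5 stood at 1156, 746 and 606 CPM in EHE6, at 803, 699.5 and 849 CPM in EHE17 and at 1186 and 1063 CPM in EHE26. EHE6 replicate 1 lay between the EHE26 libraries, so that EHE26 overlapped EHE6 and not EHE17. On the log2 scale the difference was 0.43 ± 0.32 (SE) against EHE6 and 0.52 ± 0.32 against EHE17 (edgeR adjusted p 0.553 and 0.428).

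Hsp90b1 stood at 548.5, 421 and 756 CPM in EHE6, at 393, 217 and 586 CPM in EHE17 and at 999 and 1052 CPM in EHE26. Both EHE26 libraries were above the other 6, and replicate 3 was the highest library of EHE6 and of EHE17. The fitted log2 fold change was 1.36 ± 0.43 against EHE17 (edgeR adjusted p 0.190, 0.0115 to 0.659 over 15 alternatives) and 0.84 ± 0.43 against EHE6 (adjusted p 0.368). With the replicate block, which adds the replicate number to the fit, the value against EHE17 was 1.76 ± 0.34 and was called. The block sets EHE26 mainly against replicates 1 and 2 of the other lines, all of the first set. Exons of Hsp90b1 overlap those of 1810014B01Rik, a pseudogene on the other strand, and whether counting used strand is not given in the sources used here. Exons of Pdia6, Manf, Atf5, Cebpb, Ppp1r15a and Shmt2 also overlap those of a protein-coding gene on the other strand, so their counts are uncertain to that extent. On the same strand, exons of Manf overlap those of the protein-coding gene Rbm15b, and exons of Hsp90b1 those of the transcript Gm15344. Counting by strand would not separate these.

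Hyou1, an exchange factor for BiP, stood at 232, 178 and 129.8 CPM in EHE6, at 232, 246 and 277 CPM in EHE17 and at 279.7 and 288 CPM in EHE26. EHE26 lay above all libraries of both other lines, though by 0.18 ± 0.28 only against EHE17. Sdf2l1, part of the BiP chaperone complex, was with Ern1 one of the 2 UPR genes not above 0 against EHE17. It stood at 34.2, 62.6 and 66.3 CPM in EHE17 and at 61.9 and 42.2 CPM in EHE26 (-0.06 ± 0.55). In EHE6 it ran from 16.7 to 60.2 CPM, with replicate 3 lowest.

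The disulfide isomerases Pdia4 and Pdia6 form and rearrange disulfide bonds of proteins folding in the ER, and both were higher in EHE26 without overlap. Pdia4 stood at 158, 111 and 155 CPM in EHE6, at 156, 158 and 234 CPM in EHE17 and at 338 and 339 CPM in EHE26. The EHE26 libraries were well above all 6 others. Its log2 fold change was 1.26 ± 0.28 against EHE6 (edgeR adjusted p 0.0950, the smallest of any member and comparison, and 0.00349 to 0.482 over 15 alternatives) and 0.89 ± 0.28 against EHE17 (adjusted p 0.195). Pdia4 was called against EHE6 with DESeq2 and, at 1.40 ± 0.29, with the replicate block.

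Pdia6 stood at 526, 313 and 408 CPM in EHE6, at 438, 465 and 649 CPM in EHE17 and at 921 and 686 CPM in EHE26. No EHE26 library overlapped another line, and the nearest was EHE17 replicate 3. The log2 fold change was 0.95 ± 0.32 against EHE6 and 0.64 ± 0.32 against EHE17 (edgeR adjusted p 0.240 and 0.345).

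The ER J proteins, which bring unfolded chains to BiP, differed by smaller amounts. Dnajb9, Dnajb11 and Dnajc3 were 0.56, 0.69 and 0.58 higher (log2) in EHE26 than in EHE6, and in all 3 the libraries did not overlap. Against EHE17 the values were 0.39, 0.47 and 0.64, and the libraries of Dnajb11 alone did not overlap. Dnajb11 stood at 155 CPM in both EHE26 libraries and at 58.0 to 139 CPM elsewhere.

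Manf, a secreted ER stress protein, and Creld2, an ER-resident protein, ran from 56.8 to 159.7 CPM and from 38.6 to 81.3 CPM. EHE26 overlapped EHE6 in both, because EHE6 replicate 1 was the highest EHE6 library (126 CPM for Manf and 81.3 CPM for Creld2, the highest of all 8 for Creld2). Neither gene overlapped between EHE26 and EHE17, with log2 fold changes of 0.58 ± 0.39 and 0.45 ± 0.29.

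Herpud1, which helps assemble the ER degradation complex, is the gene whose window held both an ERSE-II and a CARE. It stood at 40.7, 33.9 and 72.9 CPM in EHE6, at 36.0, 43.1 and 51.8 CPM in EHE17 and at 101 and 75.0 CPM in EHE26. EHE26 lay above both other lines, with EHE6 replicate 3 just below EHE26 replicate 2. On the log2 scale the difference was 0.84 ± 0.36 against EHE6 and 1.01 ± 0.36 against EHE17 (edgeR adjusted p 0.314 and 0.239). With the replicate block the value against EHE17 was 1.23 ± 0.30 and was called; without EHE6 replicate 3 the value against EHE6 was 1.25 ± 0.29 and was called.

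**Figure D2:**
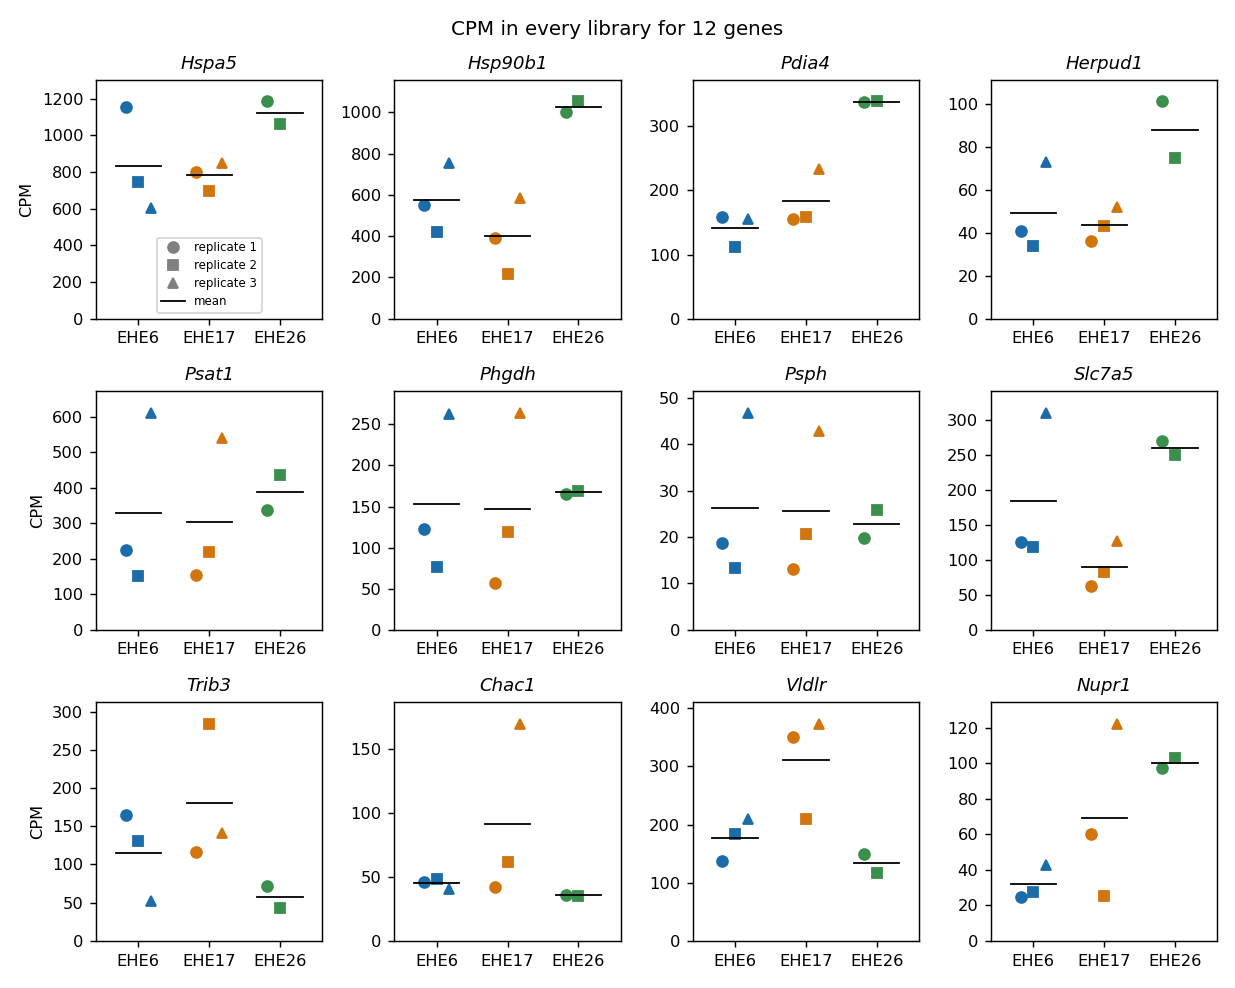
CPM (linear axis from 0) of 12 members in each library, with marker shape for the replicate and a bar at the mean of the line. The EHE26 points of Pdia4 (338 and 339 CPM) lie above all other points, replicate 3 (triangles) is highest within EHE6 and within EHE17 for Psat1, Phgdh and Psph, and EHE17 has the highest mean for Trib3, Chac1 and Vldlr.

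The sensors differed in how far they varied. Atf6 and Eif2ak3 had the narrowest ranges of the UPR group, from 65.8 to 88.3 CPM and from 30.7 to 42.8 CPM, and their log2 fold changes lay between -0.22 and 0.35 in the 3 comparisons. Xbp1 ran from 109.0 to 226 CPM, with the highest and the lowest library both in EHE17, replicates 2 and 3. Its log2 fold change was 0.33 ± 0.37 in EHE26 against EHE6 and 0.38 ± 0.36 against EHE17.

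Ern1 was the UPR gene with the widest range, 5.40 times between its lowest and highest library. It stood at 33.1, 49.8 and 77.5 CPM in EHE6, at 100.1, 69.9 and 179 CPM in EHE17 and at 111 and 102 CPM in EHE26. Ern1 was low in EHE6, and EHE17 replicate 2 was the library that overlapped it. The fitted log2 fold change was 1.12 ± 0.42 in EHE17 against EHE6 (edgeR adjusted p 0.631) and 0.99 ± 0.46 in EHE26 against EHE6 (adjusted p 0.334, 0.0164 to 0.693 over 15 alternatives). With the replicate block the latter was 1.38 ± 0.32 and was called.

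**Figure D3:**
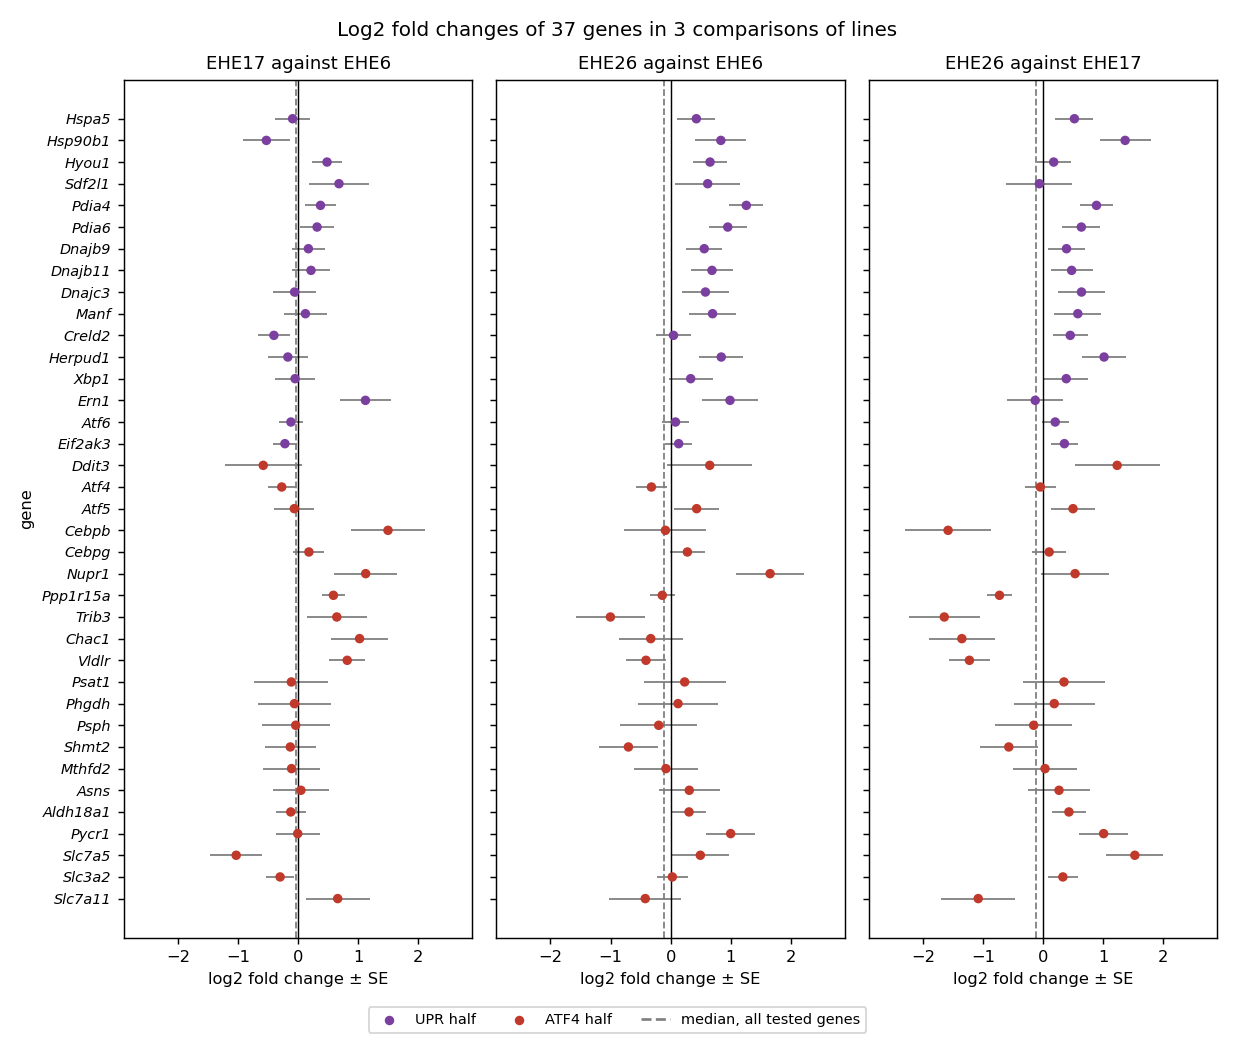
Log2 fold change with its SE (horizontal lines) for each member in the 3 comparisons, UPR genes in purple and ATF4 genes in red, with the median of all tested genes as a dashed line. The purple points lie to the right of 0 for 16 of 16 genes in EHE26 against EHE6, and the red points spread to both sides, with a median of 0.03.

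Over all libraries, the ATF4 group had no shared direction between the lines. Its median log2 fold change was -0.04 in EHE17 against EHE6, 0.03 in EHE26 against EHE6 and 0.10 in EHE26 against EHE17. In EHE26 against EHE6 libraries did not overlap for 2 genes that were higher and 3 that were lower (16.0% and 15.3% of all genes), and against EHE17 for 6 higher and 4 lower (18.7% and 20.3%). In EHE17 against EHE6 they did not overlap for 2 genes, both higher (7.25% of all genes). These counts rest on replicate 3: without replicate 3 of EHE6 and EHE17, 12 ATF4 genes were higher without overlap in each comparison with EHE26, where 30.1% and 27.1% of all genes were, and 4 and 5 were lower (36.6% and 34.6%). The median in EHE26 against EHE6 was then 0.44, and in the fit with a term for the set it was -0.22 against EHE6 and -0.36 against EHE17. Within the second set, both EHE26 libraries lay below EHE6 replicate 3 for 13 of 21 ATF4 genes and above it for 3. For all tested genes these shares were 37.6% and 37.1%. Both lay below EHE17 replicate 3 for 14 of 21 (38.0% of all genes) and above it for 6 (36.8%).

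Within the group, the transcription factors differed among themselves. Atf4 itself, whose protein is controlled mainly at translation, stood at 474, 471 and 429 CPM in EHE6, at 299, 365 and 473 CPM in EHE17 and at 362 and 372 CPM in EHE26. EHE26 lay below all 3 EHE6 libraries and inside the range of EHE17, with log2 fold changes of -0.32 ± 0.26 and -0.05 ± 0.26. Atf5 and Cebpg, a paralogue and a binding partner of ATF4, ran from 62.6 to 145 CPM and from 52.0 to 85.9 CPM; their log2 fold changes lay between -0.06 and 0.50.

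Ddit3, which encodes the stress factor CHOP, was the factor with the lowest counts. It stood at 2.56, 4.18 and 15 CPM in EHE6, at 4.87, 3.28 and 6.36 CPM in EHE17 and at 11.4 and 11.3 CPM in EHE26. EHE6 replicate 3 was the highest library of all 8, above EHE26, and it alone made EHE6 overlap EHE26. In EHE26 against EHE17 the libraries did not overlap and the log2 fold change was 1.23 ± 0.71 (edgeR adjusted p 0.403). Without replicate 3 of EHE6 and EHE17, Ddit3 was called against both lines, at 1.76 ± 0.39 and 1.47 ± 0.39. Exons of Ddit3 overlap those of Mars on the other strand, and the symbol has a further identifier, which had 0 counts.

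Cebpb, a partner of ATF4 and CHOP, went the other way. It stood at 24.1, 21.7 and 8.45 CPM in EHE6, at 48.3, 83.9 and 20.5 CPM in EHE17 and at 9.51 and 24.5 CPM in EHE26. Replicates 1 and 2 of EHE17 were the highest libraries, and replicate 3 was the lowest of its line in both EHE6 and EHE17. The log2 fold change was 1.49 ± 0.62 in EHE17 against EHE6 and -1.58 ± 0.72 in EHE26 against EHE17 (edgeR adjusted p 0.699 and 0.313). With the replicate block the latter was -2.0 ± 0.41 and was called, and with a term for the set it was not. Nupr1, a small stress-induced chromatin protein, stood at 24.8, 27.7 and 42.9 CPM in EHE6, at 60.3, 25.1 and 122 CPM in EHE17 and at 97.2 and 103 CPM in EHE26.

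Nupr1 was thus higher in EHE26 than in every EHE6 library and had its highest value in EHE17 replicate 3. Its log2 fold change in EHE26 against EHE6 was 1.65 ± 0.57, the largest in absolute size of any member and comparison (edgeR adjusted p 0.251, 0.0134 to 0.693 over 15 alternatives). With the replicate block it was 2.07 ± 0.41 and was called.

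The feedback and effector genes of the pathway had their highest mean in EHE17 and their lowest in EHE26, 4 of 4. Ppp1r15a encodes GADD34, which directs the dephosphorylation of eIF2alpha, Trib3 a pseudokinase that restrains ATF4, Chac1 an enzyme that degrades glutathione, and Vldlr a lipoprotein receptor. In EHE26 against EHE17 the libraries of all 4 genes did not overlap and were lower, where 20.3% of all tested genes did so, and 4 of 4 had an unadjusted p under 0.05 (9.03% of all genes lower). All 4 were also below 0 against EHE6, where 10691 of 18882 tested genes were, with 2 not overlapping (15.3% of all genes lower). These 4 stayed below 0 in both comparisons with the set as a term, with the replicate block and without replicate 3 of EHE6 and EHE17. The last 2 fits do not separate line from set, and the set term was drawn from these same data. None was called in the edgeR fit of all 8 libraries, and Trib3 was called against EHE17 (-1.81 ± 0.47) in the fit without replicate 3 of EHE6 and EHE17.

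Ppp1r15a stood at 54.0, 53.0 and 58.5 CPM in EHE6, at 76.0, 84.8 and 87.8 CPM in EHE17 and at 49.4 and 50.8 CPM in EHE26. This gene had the closest replicates of the 4, and EHE17 lay apart from both other lines. Its log2 fold change was 0.59 ± 0.19 in EHE17 against EHE6 and -0.73 ± 0.21 in EHE26 against EHE17 (edgeR adjusted p 0.513 and 0.169), under the fold needed for a call. Over 15 alternatives (edgeR or DESeq2) the lowest adjusted p was 0.0424 and 0.00345. The log2 fold changes stayed from 0.54 to 0.64 and from -0.81 to -0.68, so Ppp1r15a was not called in any. Vldlr stood at 138, 184 and 209.5 CPM in EHE6, at 351, 210.3 and 373 CPM in EHE17 and at 149.8 and 117 CPM in EHE26.

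EHE17 was thus above the other lines in Vldlr as well, with EHE17 replicate 2 less than 1% above EHE6 replicate 3. The log2 fold change of Vldlr was 0.82 ± 0.30 in EHE17 against EHE6 and -1.23 ± 0.34 in EHE26 against EHE17 (edgeR adjusted p 0.599 and 0.156, the latter 0.0187 to 0.679 over 15 alternatives). DESeq2 called the second of these.

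Trib3 stood at 165, 131 and 51.6 CPM in EHE6, at 116, 284 and 142 CPM in EHE17 and at 72.0 and 43.4 CPM in EHE26. EHE17 replicate 2 was the highest library, and EHE6 replicate 3 lay between the EHE26 libraries. The log2 fold change in EHE26 against EHE17 was -1.64 ± 0.59 (edgeR adjusted p 0.243). Chac1 stood at 46.1, 48.1 and 40.5 CPM in EHE6, at 42.2, 61.5 and 169.8 CPM in EHE17 and at 35.9 and 35.5 CPM in EHE26. The mean of Chac1 in EHE17 (91.2 ± 68.8 CPM, SD, n = 3) rested on replicate 3, and the log2 fold change against it was -1.35 ± 0.55 (adjusted p 0.282). The 7 ATF4 genes with a CARE went both ways in EHE26 against EHE17, from -1.64 (Trib3) to 1.01 (Pycr1), with a median log2 fold change of -1.08. Their medians were -0.33 in EHE26 against EHE6 and 0.66 in EHE17 against EHE6. The 13 without these letters in their windows had medians of 0.10, 0.03 and -0.11 in the same order. They too went both ways in EHE26 against EHE17, from -1.58 to 1.23.

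The serine and one-carbon enzymes differed more within the lines than between them. Phgdh, Psat1 and Psph carry out serine synthesis from a glycolytic intermediate, Shmt2 turns serine into glycine in mitochondria, and Mthfd2 passes on the one-carbon unit that this frees. Replicate 3 lay above replicates 1 and 2 in both EHE6 and EHE17 for 5 of the 5 enzymes, a pattern that 18.6% of all tested genes showed and 24.2% of those with a mean of at least 10 CPM. Over the mean of the other two, replicate 3 was higher by a median of 1.44 (log2) in EHE6 and 1.51 in EHE17 (all genes -0.13 and -0.11). Over the whole ATF4 group the pattern held for 16 of 21 genes, and over the UPR group for 5 of 16. The 3 members at least 1 log2 unit up in both lines (4.96% of all genes) were Psat1, Phgdh and Psph.

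Psat1 stood at 226, 152 and 613 CPM in EHE6, at 154, 219 and 542 CPM in EHE17 and at 338 and 437 CPM in EHE26. Phgdh stood at 122, 76.3 and 262 CPM in EHE6, at 57.3, 120 and 264 CPM in EHE17 and at 165 and 169 CPM in EHE26. Both EHE26 libraries lay between the low and the high libraries of the other lines in each gene. For all 5 enzymes both EHE26 libraries were below EHE6 replicate 3 and below EHE17 replicate 3, where 37.6% and 38.0% of all genes were. Against the whole lines, the log2 fold changes of the 5 lay between -0.70 (Shmt2, EHE26 against EHE6) and 0.35 (Psat1, EHE26 against EHE17), with SEs of 0.43 to 0.68. The 12 proliferation genes were highest in replicate 3 of both lines as well, 12 of 12, and the part of proliferation in the enzyme levels was not tested.

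**Figure D4:**
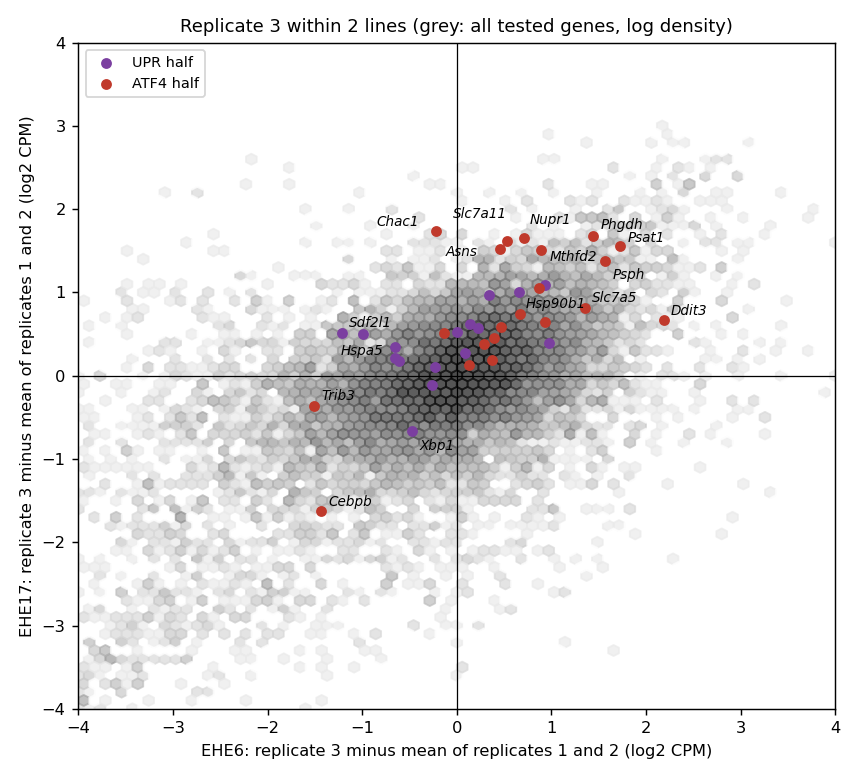
Each point is a gene: log2 CPM of replicate 3 minus the mean of replicates 1 and 2 in EHE6 (x) and in EHE17 (y), with all tested genes in grey (darker where more genes lie) and members in colour. Psat1, Phgdh and Psph lie at the upper right, above 1 on both axes, while Cebpb lies at the lower left (-1.43 and -1.63).

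Asparagine and proline synthesis followed in part. Asns, which makes asparagine, was highest in EHE17 replicate 3 (239 CPM) and lowest in EHE17 replicate 1 (61.5 CPM), and its log2 fold change was 0.31 ± 0.51 in EHE26 against EHE6. Aldh18a1 and Pycr1 carry out the first and last steps of proline synthesis from glutamate. Aldh18a1 ran from 58.3 to 111 CPM and was higher in EHE26 without overlap against EHE17 alone (0.43 ± 0.28). Pycr1 stood at 10.5, 7.93 and 17.5 CPM in EHE6, at 9.02, 11.1 and 15.6 CPM in EHE17 and at 24.0 and 23.8 CPM in EHE26. EHE26 lay above the other 6 libraries, by 1.0 ± 0.41 against EHE6 and 1.01 ± 0.41 against EHE17 (edgeR adjusted p 0.304 and 0.278). Without replicate 3 of EHE6 and EHE17, Pycr1 was called against both, at 1.38 ± 0.30 and 1.24 ± 0.29.

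The amino acid transporters split. Slc3a2 encodes the heavy chain shared by the light chains Slc7a5, which imports large neutral amino acids, and Slc7a11, which imports cystine. Slc7a5 stood at 125, 118 and 310.1 CPM in EHE6, at 62.3, 82.1 and 126 CPM in EHE17 and at 269.7 and 249 CPM in EHE26. EHE17 had the lowest mean, with its replicate 3 overlapping EHE6, and EHE6 replicate 3 stood above both EHE26 libraries. The log2 fold change in EHE26 against EHE17 was 1.53 ± 0.48 (edgeR adjusted p 0.191, 0.00327 to 0.623 over 15 alternatives), and in EHE17 against EHE6 it was -1.03 ± 0.44 (adjusted p 0.714). The first of these was called with DESeq2, with the replicate block (1.94 ± 0.30), without EHE6 replicate 3 and without replicate 3 of both lines.

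Slc7a11 was the lowest member per kilobase (1.84 CPM per kb) and went against Slc7a5. It stood at 19.7, 18.9 and 28.0 CPM in EHE6, at 23.4, 18.3 and 63.5 CPM in EHE17 and at 9.73 and 23.4 CPM in EHE26. EHE17 replicate 3 was more than double any other library, and the lines overlapped (-1.08 ± 0.61 in EHE26 against EHE17, adjusted p 0.396). Slc3a2 varied little, from 114 to 207 CPM, with a log2 fold change of 0.03 ± 0.26 in EHE26 against EHE6.

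Genes of the same pathways outside the list were counted in the same fits, and edgeR called none in any comparison. Of 19 other ER folding and UPR genes, 18 were above 0 in EHE26 against EHE6 and 16 against EHE17 (43.4% and 44.2% of all tested genes), with medians of 0.63 and 0.56 (all genes -0.11 in each). At an unadjusted p under 0.05, 9 and 6 of them were higher (6.85% and 7.56% of all genes) and 0 lower. DESeq2 called 1 in each, Txndc5, a disulfide isomerase, a share no larger than that of all genes (8.27% and 8.92%). Of 14 ER degradation genes, 13 and 11 were above 0 with medians of 0.50 and 0.48, 3 and 4 were higher at an unadjusted p under 0.05, and DESeq2 called 0 and 1, the latter Edem1. Of the other ATF4 targets, 18 of 19 were tested and 5 were above 0 in each comparison with EHE26 (medians -0.29 and -0.32). At an unadjusted p under 0.05, 2 and 3 of these were lower (9.04% and 9.03% of all genes). DESeq2 called Cbs lower in both and Shmt1 lower against EHE17. The 20 cytosolic aminoacyl tRNA synthetases, many of them ATF4 targets, had medians of -0.29 and -0.08, and the 12 cytosolic heat shock genes -0.19 and -0.14. At an unadjusted p under 0.05, 4 synthetases and 2 heat shock genes were lower in EHE26 against EHE6 and 0 of either against EHE17, and DESeq2 called 0. In EHE17 against EHE6 the same lists held 1 gene at that level, a synthetase that was lower, and DESeq2 called 0.

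Of the 6 genes for the other eIF2alpha kinases, eIF2alpha, its constitutive phosphatase subunit and a kinase inhibitor, Eif2ak2 stood out; it was singled out after its values were seen. Eif2ak2 encodes the RNA-sensing kinase PKR, an interferon-induced gene. It stood at 28.5, 30.9 and 54.2 CPM in EHE6, at 38.1, 20.9 and 47.1 CPM in EHE17 and at 149 and 158 CPM in EHE26. Both EHE26 libraries were far above the other 6, and the log2 fold change was 2.02 ± 0.41 against EHE6 and 2.12 ± 0.41 against EHE17 (edgeR adjusted p 0.0677 and 0.0628).

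**Figure D5:**
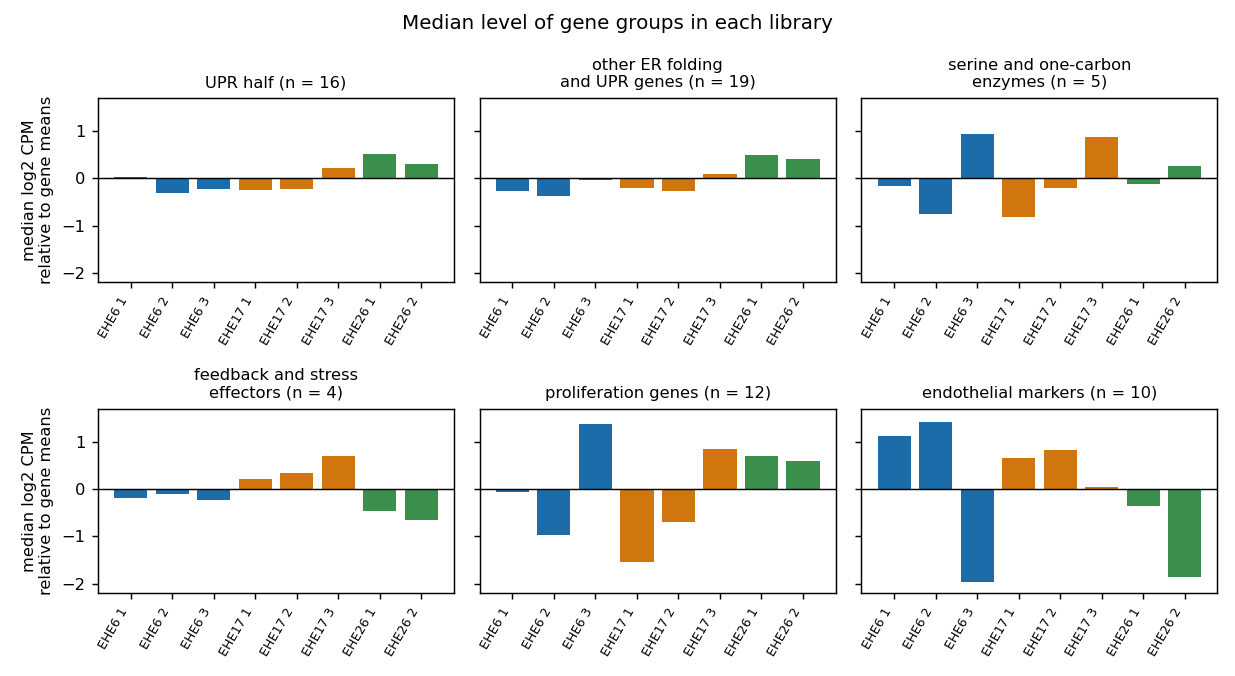
Bars give, for each library, the median over a gene group of log2 CPM minus each gene's mean over 8 libraries; colours mark the lines. The UPR group is highest in both EHE26 libraries, while the serine enzymes and the proliferation genes are highest in replicate 3 of EHE6 and EHE17, where the endothelial markers are low in EHE6.

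Summed over each list, markers of other cell types were below the endothelial markers in every library, and their part in the UPR and ATF4 levels was not tested. Single genes departed from this. In EHE6 replicate 3, Pdgfra (fibroblast, 252 CPM) and Rgs5 (pericyte, 183 CPM) were above Kdr (22.1 CPM) and Cldn5 (1.05 CPM). Both were below Pecam1 (1179 CPM) and Cdh5 (1056 CPM) there. In EHE26, Pdgfra stood at 77.5 and 59.8 CPM, beside Kdr at 102 and 46.2 CPM and Cldn5 at 7.95 and 0.526 CPM. Summed CPM over all libraries ran from 35.8 to 427 for 6 fibroblast markers, from 7.82 to 672 for 6 smooth muscle and pericyte markers, from 0.843 to 89.6 for 5 epithelial markers and from 18.1 to 68.1 for 7 leukocyte markers. The fibroblast sum was 45.5 to 268 CPM in EHE6, 35.8 to 261 CPM in EHE17 and 186 to 427 CPM in EHE26. Plasma cells, a secretory cell type rich in ER, had a sum of 17.4 to 48.0 CPM over 4 markers, with Mzb1 at 0 in all libraries. The plasma cell sum was 20.0 to 39.2 CPM in EHE6, 17.4 to 29.9 CPM in EHE17 and 18.3 and 48.0 CPM in EHE26. Of the 4 markers, 2 passed the filter on low counts. No fit held a term for these markers.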

How the data were processed

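The authors deposited raw read counts, 1 value for each Ensembl gene and library, for 8 polyA RNA libraries of mouse cell lines. Per the submitters' processing notes, the authors used HISAT2 and mm10; the counting tool, annotation and strand setting are not given in the sources used here. Each of the 8 sample files holds the same values as its column of the series table. Symbols, positions and exon lengths came from GENCODE M21 (GRCm38), which holds 55141 of the 55401 identifiers. A symbol with several identifiers took the one with the longest exon union.

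Counts were filtered by line with filterByExpr (18882 genes left), scaled by TMM and fitted with edgeR 4.0.16 in R 4.3.3 (glmQLFit, glmQLFTest), all 8 libraries in one fit with the line as the only term. The common biological coefficient of variation was 0.600 (0.427 in a fit with a term for the set). CPM were computed on TMM-scaled totals, and log2 CPM used a prior count of 2. An SE is the log2 fold change over the square root of F. The scripts were tested on simulated data. Alternatives were DESeq2 1.42.0, its size factors, no filter, fewer libraries, a replicate block and a term for the set. All members were named whatever their values; of other lists, called genes, genes behind a count of 5 or fewer, Pecam1 and Cdh5. Cldn5, Kdr, Tie1, Pdgfra, Rgs5, Col3a1, Dcn, Col1a2 and Acta2 were named after their values were seen. The members and lists were chosen with earlier results of these data known. Counts of signs and of overlap under alternatives, and the views within the second set and over genes of at least 10 CPM, were added after seeing the data.

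The replicate block took libraries of the same number as belonging together. Departures from the line means in EHE6 and EHE17 correlated across genes at 0.13, 0.18 and 0.57 for replicates 1, 2 and 3. EHE6 replicate 1 with EHE17 replicate 2 (0.54) and the reverse (0.62) correlated more than replicates 1 and 2 did by number. Pairing by number was thus not borne out for replicates 1 and 2. Promoter windows were searched as letters on both strands.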

Additional observations from a re-analysis of the deposited data

How the results depend on the processing

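No member was called in EHE17 against EHE6 under any of 15 alternative fits. In EHE26 against EHE6, DESeq2 called 1 member, the replicate block 3, and the fit without replicate 3 of EHE6 and EHE17 together 7, where that fit called 22.7% of all genes and the block 7.73%. In EHE26 against EHE17 the same settings called 2, 4 and 8 members, where the last called 21.9% of all genes and the block 9.85%. Leaving out 1 library at a time gave 0 to 2 calls in EHE26 against EHE6 and 0 to 1 in EHE26 against EHE17, the highest of each without EHE6 replicate 3, a fit that called 8.58% and 7.44% of all genes. With a term for the set of libraries, with other size factors, with no filter, with only the lines compared or with no minimum fold, 0 members were called. The replicate block changed no call other than the 7 named with their values.

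Medians over the UPR genes ranged from 0.38 to 0.78 in EHE26 against EHE6, the lowest without EHE26 replicate 1, and from 0.38 to 0.60 against EHE17 when single libraries were left out. Those of the ATF4 genes ranged from -0.33 to 0.38 in EHE17 against EHE6, from -0.11 to 0.44 in EHE26 against EHE6 and from -0.19 to 0.46 in EHE26 against EHE17. Without replicate 3 of EHE6 and EHE17 together the ATF4 median was 0.44 in EHE26 against EHE6, and ATF4 genes higher without overlap numbered 12 in each comparison with EHE26, against 2 and 6. With a term for the set it was -0.36 in EHE26 against EHE17. The cause was not tested.

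Of 1665 single gene values under the alternatives, 28 became calls and 108 uncalled values changed sign, the largest of them 0.66 in the main fit; 0 calls were lost. Each member had at least 190 counts in every library; an effect of depth was not tested.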
